A study of Mus musculus with 11 samples.

Results

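The Wnt pathway was described through 10 of its genes in primary myoblasts, dividing cells that can go on to form muscle fibres. They were the ligands Wnt5a and Wnt9a, the receptors Fzd1, Fzd2 and Fzd7, the secreted inhibitor Sfrp1, the transducers Dvl2 and Ctnnb1, the negative regulator Axin2 and the transcription factor Tcf7l2. The genes were chosen by name, with earlier results of these data known. They were matched to the count table by their Ensembl mouse identifiers, and all 10 were among the 22104 genes listed. All 10 were also among the 14729 genes tested, which needed a normalized read count of at least 10 in at least 2 libraries, and Axin2 met this in exactly 2 libraries. The cells came from the tibialis anterior muscle of C57BL/6 mice about 8 weeks old, either wild-type or Bmal1-/-, and Bmal1 (gene symbol Arntl) encodes an activator of the circadian clock. Cells grown in Ham's F-10 with 20% FBS and bFGF at 2.5 ng/ml spent 6 h at 21% oxygen (normoxia) or at 1% oxygen (hypoxia). Total RNA was sequenced in 2 libraries for wild-type normoxia and in 3 libraries for each of the other groups, wild-type hypoxia, knockout normoxia and knockout hypoxia. The labels do not give the deleted part of Bmal1 or the tissues in which it was deleted, and they leave unstated if the libraries within a group were separate mice or separate dishes. P-values therefore rest on library-to-library spread, part of which can be technical.

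Wnt proteins are secreted, lipid-modified ligands that bind Frizzled receptors on the cell surface, and Dishevelled proteins carry the signal inside. In the canonical branch the co-receptors Lrp5 and Lrp6 join the Frizzled receptor, beta-catenin (encoded by Ctnnb1) escapes a destruction complex built on axin, and beta-catenin enters the nucleus to act with TCF/LEF transcription factors. Other branches, often started by Wnt5a or Wnt11, act on cell polarity and movement through receptors such as Ror2. In muscle, Wnt signals are known to act on satellite cell division, commitment and differentiation.

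Recovered reads per library totalled 18707697 to 21451760 in normoxia and 23027613 to 33613328 in hypoxia, with no overlap in depth between the oxygen levels. Arntl, the deleted gene, had normalized counts of 264 to 328 in the 5 wild-type libraries and 98.8 to 134 in the 6 knockout libraries, so reads on the gene remained. All 10 myoblast markers were detected, with Myod1 at 7793 to 9502 and Pax7 at 1123 to 1595. Markers of fibro-adipogenic progenitors and fibroblasts were detected too, although Dpt, Pi16 and Dpp4 stayed at or below 4.22 in every library. Endothelial markers summed to 84.7 to 127 per library, Schwann cell markers to 23.2 to 41.2, leukocyte markers to 12.4 to 42.8 and adipocyte markers to 0 to 2.05.

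Per kilobase of exon, Ctnnb1 stood far above the other genes, with a mean of 3177 normalized counts per kb over the 11 libraries and a range of 3083 to 3400. Fzd2 followed at 174 (155 to 194), then Fzd7 at 130 (97.9 to 155), Fzd1 at 114 (98.5 to 136) and Wnt5a at 113 (80.8 to 153). The ranges of Fzd7, Fzd1 and Wnt5a overlapped, so their order did not hold in every library. Wnt9a had a mean of 81.3 per kb (68.6 to 91.3) and Dvl2 of 57.3 (48.8 to 67.3). Below them came Tcf7l2 at 25.9 (22.3 to 32), Sfrp1 at 11.6 (8.21 to 16.9) and Axin2 at 0.789 (0.186 to 2.03). The ranges of Dvl2, Tcf7l2, Sfrp1 and Axin2 did not overlap. Wnt5a and Wnt9a were the most abundant of the Wnt ligands tested per kb, and the next, Wnt7b, had a mean of 18.3.

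**Figure D1:**
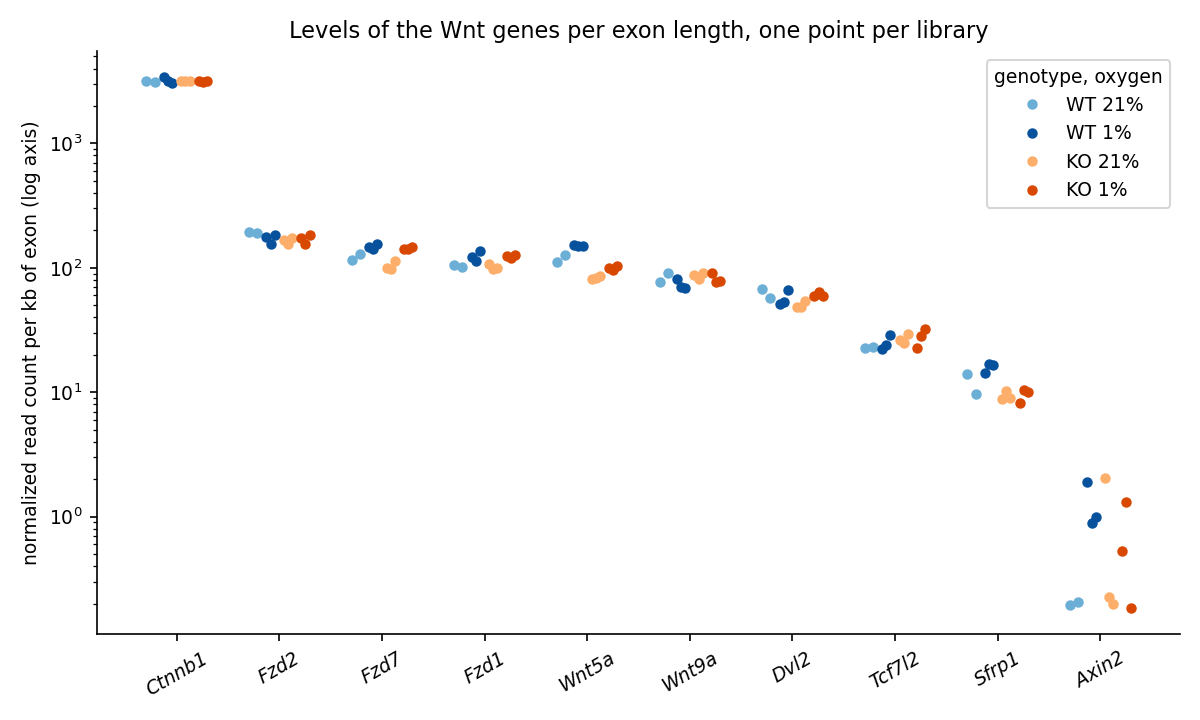
Normalized read count per kb of exon (log axis) for the 10 Wnt genes, ordered by their mean, with 1 point per library coloured by genotype and oxygen level. Ctnnb1 lies near 3177 per kb, most receptors and Wnt5a near or above 113, and Axin2 below the other genes in every library.

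Wnt5a, a ligand best known for signalling outside the beta-catenin branch, was the one gene of the 10 that passed the test in each of the 4 pairwise comparisons. It rose in hypoxia in both genotypes and fell with loss of Bmal1 at both oxygen levels. Wnt5a (ENSMUSG00000021994) lies on chromosome 14 from 28504750 to 28527448 on the plus strand of GRCm38 and is protein-coding. Its normalized counts were 876 and 984 in wild-type normoxia against 1196, 1180 and 1176 in wild-type hypoxia. In knockout cells they were 632, 650 and 668 in normoxia against 774, 746 and 816 in hypoxia. The wild-type hypoxia libraries were the highest of the 11 and the knockout normoxia libraries the lowest, and no pair of compared groups overlapped.

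The log2 difference of Wnt5a between hypoxia and normoxia was 0.35 in wild-type cells (SE 0.07, 1.28-fold, limma adjusted p = 0.00996). In knockout cells it was 0.26 (SE 0.06, 1.2-fold, limma adjusted p = 0.0218). Some fibroblast markers moved with hypoxia in knockout cells too: 3 of the 9 tested rose there (Cd34, Col1a1 and Col3a1). Of all tested genes 4.09% were called there. The other 6 markers did not pass, and 2 of the 9 had negative log2 differences. The Cd34 call held in all 16 alternatives, that of Col1a1 in 12 and that of Col3a1 in 6. The fibroblast marker sum in knockout cells was 13266 to 13961 in normoxia and 15203 to 15975 in hypoxia. In wild-type cells the sums overlapped, at 17937 to 19921 in normoxia against 19881 to 20085 in hypoxia. The part of these markers in the Wnt5a rise was not tested. The difference between these hypoxia effects of Wnt5a was -0.09 (95% interval -0.28 to 0.10, limma adjusted p = 0.935), so no difference in response was shown. The wild-type call was lost on omitting wild-type normoxia replicate 1 (limma adjusted p = 0.151). The knockout call was lost on omitting knockout normoxia replicate 1 or 2 (adjusted p = 0.0914 and 0.0681), without knockout hypoxia replicate 1 or 3 (0.0648 and 0.0991), and without the variance trend (0.0582).

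Loss of Bmal1 went with a Wnt5a level 1.43-fold lower in normoxia, a log2 difference of -0.51 (SE 0.07, limma adjusted p = 0.000166). In hypoxia the level was 1.52-fold lower, with a log2 difference of -0.61 (SE 0.06, limma adjusted p = 1.23e-05). Both calls held in all 16 alternatives, among them leaving out each library. Fibroblast markers moved with the genotype: 8 of the 9 tested fell at each oxygen level, and their summed count over 12 genes was 17937 to 20085 in wild-type and 13266 to 15975 in knockout libraries. Pdgfra, a defining marker of fibro-adipogenic progenitors, had a log2 difference of -1.38 in normoxia and -1.29 in hypoxia. Pericyte and smooth muscle markers summed to 2806 to 3143 in wild-type and 2056 to 2148 in knockout libraries, where Cspg4 and Mcam fell. The other 3 pericyte markers tested did not pass, and all 3 had positive log2 differences in normoxia (Rgs5 0.24, Myh11 0.70, Abcc9 0.53). The lower sum in normoxia therefore follows Cspg4 and Mcam. In hypoxia 3 of the 5 tested had negative log2 differences, Cspg4 and Mcam among them, with a median of -0.52. Myoblast markers summed to 53346 to 59387 in wild-type and 60394 to 63917 in knockout libraries. Of the 10, 2 rose in knockout cells in normoxia (Myf5 and Chrna1) and 4 in hypoxia (Myf5, Chrna1, Myog and Itga7). Of all tested genes 9.09% and 8.95% were called. The other myoblast markers did not pass, and 6 of the 10 had negative log2 differences in normoxia and 2 in hypoxia. The median log2 difference of the 10 was -0.025 in normoxia and 0.084 in hypoxia. The part of these markers in the Wnt5a difference was not tested. In bulk RNA, fewer cells of a type and less RNA per cell cannot be told apart.

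The antisense gene Gm2670 shares exonic sequence with Wnt5a, and the sources used here do not say whether counting used the strand. Gm2670 had 15.4 to 40.8 normalized counts, far fewer than Wnt5a, and it fell in knockout hypoxia libraries against wild-type (log2 difference -0.89, limma adjusted p = 0.0236). By Pearson correlation of log2 values over the 11 libraries, the genes most like Wnt5a were Tent5a (r = 0.984), the kinase gene Stk10 (r = 0.984) and Lox (r = 0.984), which encodes a collagen and elastin cross-linking enzyme. The libraries share the same 4 groups, so these values describe a common pattern over groups and libraries.

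**Figure D2:**
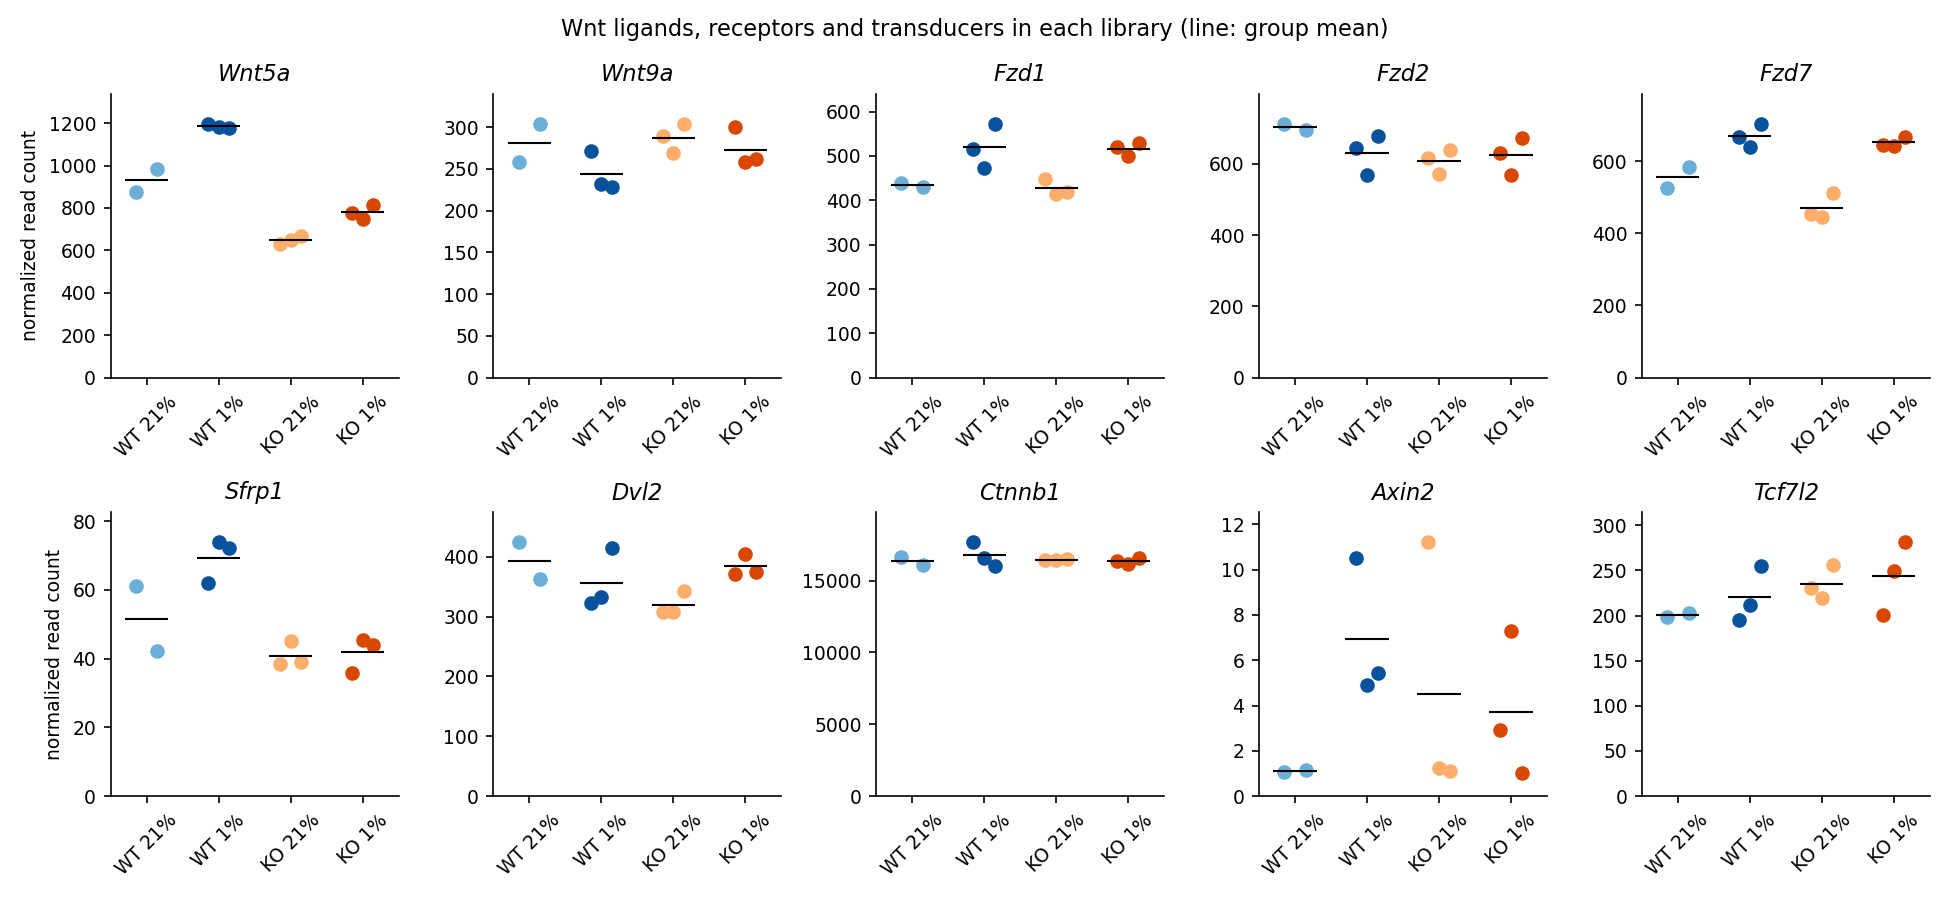
Normalized read counts of the 10 Wnt genes in each library, grouped by genotype (WT wild-type, KO knockout) and oxygen level, with a line at the group mean and axes starting at 0. Wnt5a separates all 4 groups, from 632 to 668 in knockout normoxia to 1176 to 1196 in wild-type hypoxia, and Ctnnb1 stays between 16006 and 17651.

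Wnt9a, a ligand known from joint development, passed the test in none of the 4 comparisons. Wnt9a (ENSMUSG00000000126, chromosome 11, 59306928 to 59333552, plus strand) had counts of 258 and 304 in wild-type normoxia against 272, 232 and 229 in wild-type hypoxia. Knockout libraries had 289, 269 and 304 in normoxia against 300, 258 and 262 in hypoxia. The groups overlapped in every comparison. The log2 difference for hypoxia was -0.20 in wild-type cells (95% interval -0.44 to 0.04, limma adjusted p = 0.466) and -0.07 in knockout cells (-0.29 to 0.14, limma adjusted p = 0.767). Between genotypes it was 0.04 in normoxia (-0.21 to 0.28, limma adjusted p = 0.89) and 0.16 in hypoxia (-0.05 to 0.38, limma adjusted p = 0.398).

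The other ligands were scarce. Of 19 Wnt ligand genes on the pathway list 15 were listed and 7 were tested. Wnt7b rose in wild-type hypoxia, from 65.3 and 84.5 in normoxia to 115, 112 and 119, a log2 difference of 0.63 (SE 0.15, limma adjusted p = 0.0438). That call was lost on omitting wild-type normoxia replicate 1 (adjusted p = 0.32), without any 1 of the 3 wild-type hypoxia libraries, and without any 1 of the 6 knockout libraries, with adjusted p from 0.0503 upwards, and also with DESeq2 (0.117) and with no filter on low values (0.0816). In knockout cells Wnt7b had a log2 difference of 0.25 for hypoxia (limma adjusted p = 0.363), and the difference between the effects was -0.38 (limma adjusted p = 0.917). Wnt11, another ligand of the polarity branch, fell in knockout normoxia, from 27.8 and 17.1 in wild-type to 8.69, 9.99 and 9.77 (log2 difference -1.13, SE 0.31, limma adjusted p = 0.0348). Those are low counts, and the call was lost on omitting wild-type normoxia replicate 1 (0.274), any 1 of the 3 knockout normoxia libraries (0.0546 to 0.0826) or wild-type hypoxia replicate 2 (0.0525), and with DESeq2 (0.14) and no filter (0.0656). In hypoxia Wnt11 was also lower in knockout libraries, at 12.6, 13.6 and 11.3 against 18.1, 19 and 22.5 in wild-type. That difference had an unadjusted p under 0.05 in the limma fit and was not called. Wnt1, Wnt3a, Wnt7a and Wnt9b were not among the 22104 genes listed.

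Among the Frizzled receptors, which bind the Wnt ligand, Fzd7 gave the clearest response to low oxygen. Fzd7 is known as the receptor for Wnt7a on satellite cells. Fzd7 (ENSMUSG00000041075, chromosome 1, 59482424 to 59486955, plus strand) had counts of 454, 444 and 511 in knockout normoxia and 645, 643 and 667 in knockout hypoxia. Wild-type libraries had 525 and 585 in normoxia against 666, 640 and 703 in hypoxia. The lowest hypoxia library exceeded the highest normoxia library in each genotype.

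Fzd7 rose in knockout hypoxia by 0.47 on the log2 scale (SE 0.07, 1.39-fold, limma adjusted p = 0.0014), a call that held in all 16 alternatives. In wild-type cells the log2 difference was 0.27 (SE 0.08, limma adjusted p = 0.114) and did not pass. The difference between the effects was 0.20 (95% interval -0.03 to 0.43, limma adjusted p = 0.917). In normoxia the knockout libraries lay below the wild-type libraries without overlap, with a log2 difference of -0.24 (limma adjusted p = 0.0785) that passed when knockout normoxia replicate 3 was left out (adjusted p = 0.0293). In hypoxia the genotypes overlapped, with a log2 difference of -0.04 (-0.19 to 0.11, limma adjusted p = 0.83). The comparisons share the knockout normoxia libraries, so the knockout rise and the normoxia difference are not separate measurements. The genes most like Fzd7 over the 11 libraries were the receptor gene Epha1 (r = 0.988), Cabin1 (r = 0.973) and Smtn (r = 0.970).

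Fzd1 (ENSMUSG00000044674, chromosome 5, 4753839 to 4758035, minus strand) was higher in hypoxia in both genotypes, though neither difference passed. Its counts were 439 and 429 in wild-type normoxia, 515, 473 and 572 in wild-type hypoxia, 448, 414 and 419 in knockout normoxia and 519, 500 and 530 in knockout hypoxia. Each hypoxia library exceeded each normoxia library of its genotype. The log2 difference was 0.26 in wild-type cells (SE 0.08, limma adjusted p = 0.17) and 0.27 in knockout cells (SE 0.07, limma adjusted p = 0.0569). The knockout value passed when wild-type hypoxia replicate 2 or 3 was left out (limma adjusted p = 0.0443 and 0.0368). The difference between the hypoxia effects was 0.02 (95% interval -0.22 to 0.26). Between genotypes Fzd1 differed by -0.03 in normoxia (95% interval -0.20 to 0.15) and by -0.01 in hypoxia (-0.17 to 0.15).

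Fzd2 (ENSMUSG00000050288, chromosome 11, 102604396 to 102608058, plus strand), a receptor that Wnt5a can use, passed in no comparison. Its counts were 712 and 694 in wild-type normoxia, 644, 570 and 678 in wild-type hypoxia, 617, 571 and 640 in knockout normoxia and 630, 569 and 673 in knockout hypoxia. The wild-type normoxia libraries were the highest of the 11. The log2 difference for hypoxia was -0.16 in wild-type cells (95% interval -0.35 to 0.03, limma adjusted p = 0.47) and 0.03 in knockout cells (-0.14 to 0.20, limma adjusted p = 0.883). Between genotypes it was -0.21 in normoxia (limma adjusted p = 0.18) and -0.02 in hypoxia (limma adjusted p = 0.956).

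Of the 10 Frizzled genes on the pathway list, 9 were tested. Fzd3, a receptor of the polarity branch, rose with loss of Bmal1 at both oxygen levels. Its counts were 577 to 640 in the wild-type and 687 to 740 in the knockout libraries, with a log2 difference of 0.25 in normoxia (limma adjusted p = 0.0186) and 0.19 in hypoxia (limma adjusted p = 0.0443). The normoxia call was lost on omitting wild-type normoxia replicate 2 (0.164), and on omitting replicate 1 or 2 of knockout normoxia (0.051 and 0.0609). The hypoxia call was lost on omitting any 1 of the 6 hypoxia libraries (0.0697 to 0.158) or knockout normoxia replicate 1 or 2 (0.0593 and 0.0521), and with DESeq2 (0.0852) or no filter on low values (0.0585).

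**Figure D3:**
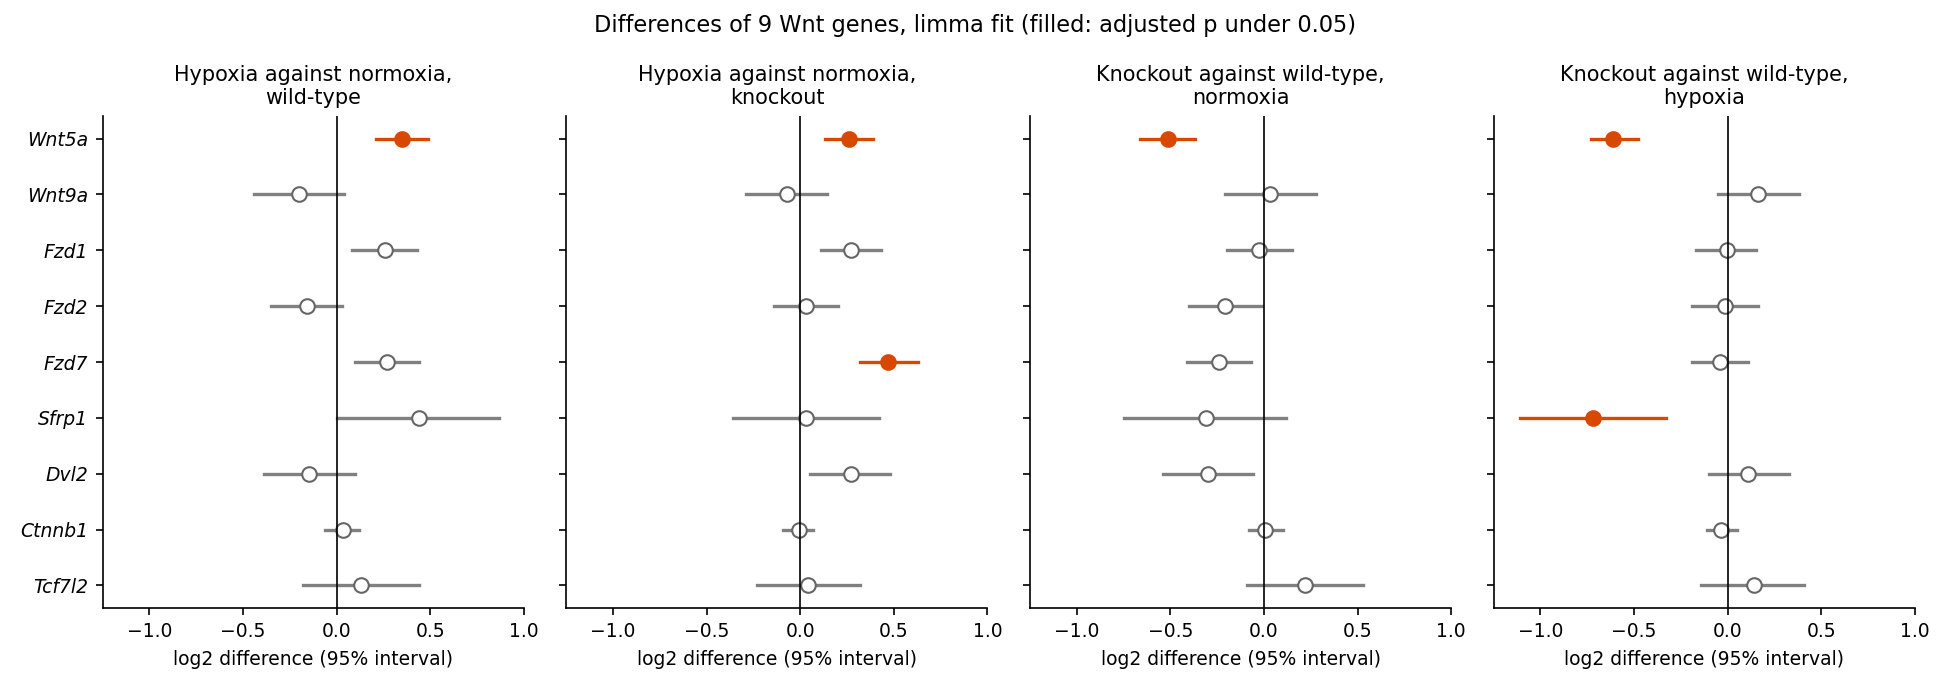
Log2 differences of 9 Wnt genes with 95% intervals in the 4 pairwise comparisons, with filled orange points for an adjusted p under 0.05 in the limma fit and open points otherwise. Axin2, at 1 to 11 reads per library, is left out because its intervals are several times wider. Wnt5a is filled in all 4 panels, Fzd7 in knockout hypoxia and Sfrp1 in the hypoxia genotype comparison.

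Sfrp1 encodes a secreted protein that binds Wnt ligands and keeps them from their receptors. Sfrp1 (ENSMUSG00000031548, chromosome 8, 23411502 to 23449632, plus strand) was low, with counts of 61 and 42.2 in wild-type normoxia against 61.9, 73.8 and 72.3 in wild-type hypoxia. Knockout libraries had 38.5, 45 and 39.1 in normoxia against 35.9, 45.4 and 44.1 in hypoxia. In hypoxia every knockout library was below every wild-type library, while in normoxia the genotypes overlapped.

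Sfrp1 fell in knockout against wild-type in hypoxia by 0.72 on the log2 scale (SE 0.18, 1.65-fold lower, limma adjusted p = 0.0226). The call was lost on omitting wild-type hypoxia replicate 2 or 3 (adjusted p = 0.089 and 0.0779) or knockout hypoxia replicate 1 (0.0916). In normoxia the log2 difference was -0.31 (95% interval -0.75 to 0.12, limma adjusted p = 0.39). Hypoxia gave 0.44 in wild-type cells (SE 0.20, limma adjusted p = 0.364) and 0.03 in knockout cells (limma adjusted p = 0.963), and the difference between these was -0.41 (-0.99 to 0.18, limma adjusted p = 0.917). The fibroblast marker sum was also lower in the knockout hypoxia libraries, 15203 to 15975 against 19881 to 20085, and its part in the Sfrp1 difference was not tested. The genes most like Sfrp1 over the 11 libraries were Jcad (r = 0.977), Chsy1 (r = 0.948), which encodes a chondroitin synthase, and Ptgs2os2 (r = 0.945).

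Of 15 extracellular inhibitors on the pathway list 9 were tested, Sfrp1 included. Between genotypes 2 of the 9 fell in normoxia, Dkk2 and Dkk3, and 3 fell in hypoxia, Sfrp1, Dkk2 and Sost. Of all tested genes 9.09% were called in normoxia and 8.95% in hypoxia. Negative log2 differences were found for 7 of the 9 in normoxia and 6 in hypoxia. The others did not pass, and Kremen1 and Kremen2 had positive log2 differences at both oxygen levels, of 0.09 and 0.08 in normoxia against 0.12 and 0.37 in hypoxia. The median log2 difference of the 9 was -0.58 in normoxia and -0.50 in hypoxia, where the medians over all tested genes were 0.0049 and 0.0045. Dkk2, which binds Lrp5 and Lrp6, fell at both oxygen levels, from 236 and 251 in wild-type to 89.4, 98.7 and 91.2 in knockout normoxia, and from 285, 254 and 249 to 109, 94.5 and 94.3 in hypoxia. The log2 differences of Dkk2 were -1.38 (SE 0.12, limma adjusted p = 4.17e-06) and -1.40 (SE 0.10, limma adjusted p = 1.14e-06), and both calls held in all 16 alternatives. Sost, which encodes the Lrp5 and Lrp6 antagonist sclerostin, fell in hypoxia, from 38.1, 35.8 and 33.4 to 8.73, 17.3 and 15.4 (log2 difference -1.36, SE 0.34, limma adjusted p = 0.0222). The Sost call was lost on omitting any 1 of the 3 wild-type hypoxia libraries or knockout hypoxia replicate 1 (adjusted p = 0.0558 to 0.0918). In normoxia Sost was also lower in knockout cells, at an unadjusted p under 0.05 in the limma fit, but was not called.

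Dkk3, a divergent member of the Dickkopf family, fell in knockout normoxia, from 67.5 and 95.9 to 60.8, 41.2 and 36.9 (log2 difference -0.82, SE 0.23, limma adjusted p = 0.0456). In hypoxia Dkk3 was also lower in knockout cells, at an unadjusted p under 0.05 in the limma fit, but was not called. The Dkk3 call in normoxia held in 4 of 16 alternatives. It was lost on omitting either wild-type normoxia library (0.0516 and 0.343), knockout normoxia replicate 2 or 3 (0.122 and 0.109), wild-type hypoxia replicate 1 or 2 (0.0532 and 0.0613) or any 1 of the 3 knockout hypoxia libraries (0.0536 to 0.0567), with DESeq2 (0.0622), without the variance trend (0.0812) and with no filter (0.0758). Kremen1, a receptor for Dickkopf proteins, rose in knockout hypoxia by 0.26 (SE 0.06, limma adjusted p = 0.0233) from 4549 to 4889 up to 5555 to 5922 normalized counts. Its call was lost on omitting knockout normoxia replicate 1 or 2 (0.0686 and 0.105) or any 1 of the 3 knockout hypoxia libraries (0.0543 to 0.0969). Without the variance trend it was lost too (0.116). In wild-type hypoxia Kremen1 was also higher, at an unadjusted p under 0.05 in the limma fit, but was not called. The difference between its hypoxia effects in the genotypes was not called either.

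Dvl2, 1 of 3 Dishevelled genes and a cytoplasmic relay between Frizzled and both branches, passed in no comparison. Dvl2 (ENSMUSG00000020888, chromosome 11, 70000595 to 70012301, plus strand) had counts of 424 and 363 in wild-type normoxia against 323, 332 and 415 in wild-type hypoxia. Knockout libraries had 308, 307 and 343 in normoxia against 372, 405 and 375 in hypoxia. Hypoxia and normoxia overlapped in wild-type cells and did not overlap in knockout cells.

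The log2 difference of Dvl2 for hypoxia was -0.15 in wild-type cells (limma adjusted p = 0.636) and 0.27 in knockout cells (SE 0.10, limma adjusted p = 0.182), and neither passed. The difference between them was 0.41 (95% interval 0.09 to 0.74, unadjusted p = 0.0167 in the limma fit), which did not pass adjustment over all genes (adjusted p = 0.905). Dvl2 was the 1 gene of the 73 tested pathway genes at an unadjusted p under 0.05 for this difference, where 784 of all 14729 tested genes were. In normoxia the knockout libraries lay below the wild-type libraries, with a log2 difference of -0.30 (limma adjusted p = 0.124), and in hypoxia the difference was 0.11 (limma adjusted p = 0.594). The gene Acadvl lies on the opposite strand and shares exonic sequence with Dvl2, at 1176 to 1481 normalized counts. Acadvl had log2 differences of 0.06 and 0.04 for hypoxia in wild-type and knockout cells. Between genotypes they were -0.10 in normoxia and -0.13 in hypoxia, and Acadvl was called in none of these comparisons.

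The 250 bases before the RefSeq start of Dvl2 are shown with those of Wnt9a and Fzd7. These windows hold motifs of factors that bear on the design or the pathway, as do those of Tcf7l2, which are not shown. Promoters were available for 7 of the 10 genes, and Wnt5a, Fzd2 and Sfrp1 are named only. Sequences are from RefSeq, GRCm38.p6, plus strand, 5′ to 3′, and lie at chr11:70000342-70000591 for Dvl2, chr11:59306680-59306929 for Wnt9a and chr1:59481897-59482146 for Fzd7. Capitals mark matches, on either strand, to the E-box CACGTG bound by CLOCK and BMAL1, the hypoxia response core ACGTG bound by HIF, the TCF/LEF motifs (the letters CTTTGAA, or the letters CTTTGAT, or the letters CTTTGTA, or the letters CTTTGTT) and the ROR/REV-ERB core AGGTCA.
Dvl2: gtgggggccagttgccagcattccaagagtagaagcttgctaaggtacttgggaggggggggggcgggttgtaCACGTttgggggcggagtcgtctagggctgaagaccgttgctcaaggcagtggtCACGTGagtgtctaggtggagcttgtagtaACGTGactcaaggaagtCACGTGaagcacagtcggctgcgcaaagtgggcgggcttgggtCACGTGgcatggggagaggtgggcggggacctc
Wnt9a: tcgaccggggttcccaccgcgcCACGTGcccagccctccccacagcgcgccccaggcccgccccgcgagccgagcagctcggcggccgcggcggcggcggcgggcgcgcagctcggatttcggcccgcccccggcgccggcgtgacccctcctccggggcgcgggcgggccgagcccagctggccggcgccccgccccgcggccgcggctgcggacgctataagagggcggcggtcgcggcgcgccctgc
Fzd7: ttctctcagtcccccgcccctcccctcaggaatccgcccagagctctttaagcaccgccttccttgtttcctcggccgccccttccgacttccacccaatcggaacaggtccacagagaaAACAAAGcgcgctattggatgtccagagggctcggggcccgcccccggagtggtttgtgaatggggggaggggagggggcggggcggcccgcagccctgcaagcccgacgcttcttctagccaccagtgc
The Dvl2 window held 3 E-boxes, starting 123, 76 and 33 bases before the start, and 5 sites with the core ACGTG, of which 3 lie inside the E-boxes. The others start 177 and 93 bases before the start. Of 32851 mouse promoter windows of this length, 6.02% held an E-box and 0.0609% held at least 3, while 16.6% held the core. The count of 3 was picked after the Dvl2 window was seen. The Wnt9a window held 1 E-box, 228 to 223 bases before the start, which contains the core. The Fzd7 window held 1 TCF/LEF match, AACAAAG on the strand shown, 130 to 124 bases before the RefSeq start at 59482147, and 14.8% of windows held one. That start lies before the GENCODE start of Fzd7 at 59482424, and the bases after it were not found in a GENCODE transcript of the gene. For Tcf7l2 the window of one start held the core ACGTG and that of another start CTTTGTT. The windows of Fzd1, Ctnnb1 and Axin2 held none of these motifs, and AGGTCA, in 14% of windows, was in none of the windows of the 7 genes.

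Among the other genes of the Dishevelled and polarity list, 11 of 12 were tested. Prickle1, a cytoplasmic polarity protein, fell in knockout cells at both oxygen levels, from 105 and 115 to 53.4, 65 and 67.3 in normoxia and from 123, 118 and 117 to 69.8, 67.2 and 72.8 in hypoxia. Its log2 differences were -0.83 (SE 0.14, limma adjusted p = 0.00214) and -0.76 (SE 0.13, limma adjusted p = 0.00136), and both calls held in all 16 alternatives. Daam1, a formin that links Dishevelled to actin, rose with loss of Bmal1 by 0.21 in normoxia (limma adjusted p = 0.0433) and 0.22 in hypoxia (limma adjusted p = 0.0187). The normoxia call held in 4 of 16 alternatives and was lost with both count-based tools (edgeR adjusted p = 0.0544, DESeq2 0.0745), with no filter (0.0569), without the variance trend (0.0632) and without any 1 of 8 libraries (0.0555 to 0.17). Those 8 were both wild-type normoxia libraries, replicates 2 and 3 of knockout normoxia, of wild-type hypoxia and of knockout hypoxia. The hypoxia call of Daam1 was lost on omitting replicate 2 or 3 of either hypoxia group (0.054 to 0.0914).

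Ctnnb1, which encodes beta-catenin, was nearly level across the 4 groups. Ctnnb1 (ENSMUSG00000006932, chromosome 9, 120929216 to 120960507, plus strand) had counts of 16628 and 16112 in wild-type normoxia against 17651, 16600 and 16006 in wild-type hypoxia. Knockout libraries had 16420, 16415 and 16504 in normoxia against 16348, 16179 and 16567 in hypoxia. The groups overlapped in every comparison, and the 4 log2 differences lay between -0.03 and 0.03. Their 95% intervals reached at most 0.12 from 0, in wild-type hypoxia, so larger changes of this transcript lay outside the intervals. The gene Ulk4 shares exonic sequence with Ctnnb1 on the opposite strand, at 45.7 to 63 normalized counts. Of the 8 tested genes of beta-catenin and its destruction complex, which also holds Axin1, Apc, Gsk3a and Gsk3b, 0 were called by limma in any of the 4 pairwise comparisons and 0 by edgeR or DESeq2. Of all tested genes limma called 2.17% to 9.09% in each pairwise comparison, so 0 of 8 does not set this list apart. At an unadjusted p under 0.05 there was 1 of the 8, Apc, in wild-type hypoxia, where 2000 of all 14729 tested genes were.

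Tcf7l2, a transcription factor that binds DNA together with beta-catenin, passed in no comparison. Tcf7l2 (ENSMUSG00000024985, chromosome 19, 55741820 to 55933654, plus strand) had counts of 198 and 203 in wild-type normoxia against 195, 212 and 255 in wild-type hypoxia. Knockout libraries had 230, 219 and 256 in normoxia against 201, 249 and 281 in hypoxia. The knockout libraries were above the wild-type libraries in normoxia and overlapped them in hypoxia. Between genotypes the log2 difference was 0.22 in normoxia (95% interval -0.09 to 0.53, limma adjusted p = 0.385) and 0.14 in hypoxia (-0.14 to 0.41, limma adjusted p = 0.622). For hypoxia it was 0.13 in wild-type cells (limma adjusted p = 0.772) and 0.04 in knockout cells (limma adjusted p = 0.911).

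Of the 13 TCF/LEF factors and nuclear partners, all tested, Lef1, a TCF/LEF factor that is itself a known Wnt target, fell at both oxygen levels in knockout cells. Its counts were 149 to 182 in the wild-type and 76.9 to 124 in the knockout libraries, with a log2 difference of -0.79 in normoxia (SE 0.16, limma adjusted p = 0.00657) and -0.63 in hypoxia (SE 0.14, limma adjusted p = 0.012). The normoxia call was lost on omitting wild-type normoxia replicate 2 (0.0869), and the hypoxia call without wild-type hypoxia replicate 2 or 3 or knockout hypoxia replicate 1 (0.0502 to 0.0559). Ctnnbip1, an inhibitor that keeps beta-catenin from TCF factors, rose in knockout hypoxia by 0.32 (SE 0.05, limma adjusted p = 0.00334), from 1192 to 1276 up to 1501 to 1566, and held in all 16 alternatives. In wild-type hypoxia Ctnnbip1 was also higher, at an unadjusted p under 0.05 in the limma fit, but was not called. The difference between its hypoxia effects in the genotypes was not called either. Tle1, a corepressor of TCF factors, fell in knockout normoxia by 0.39 (limma adjusted p = 0.0369). The Tle1 call was lost on omitting any 1 of the 5 normoxia libraries (0.0575 to 0.178) and without the variance trend (0.0942).

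Axin2, a negative regulator of beta-catenin that canonical Wnt signalling itself induces, is widely used as a readout of that branch. Axin2 (ENSMUSG00000000142, chromosome 11, 108920349 to 108950783, plus strand) was at the floor of detection, with 1 to 11 reads per library. It had 1 and 1 reads in wild-type normoxia, 11, 7 and 7 in wild-type hypoxia, 9, 1 and 1 in knockout normoxia and 3, 8 and 1 in knockout hypoxia. Wild-type hypoxia lay above wild-type normoxia, and the other groups overlapped. Wild-type hypoxia libraries were also the deeper ones, and the normalized values were 1.07 and 1.14 against 10.5, 4.92 and 5.44. The fitted log2 difference was 1.85 with a 95% interval of 0.06 to 3.64 (limma adjusted p = 0.346), and it rests on 2 reads in wild-type normoxia. In knockout cells it was 0.07 (-1.54 to 1.67, limma adjusted p = 0.978), so a difference of several-fold in either direction was not detectable at this depth.

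Among the other feedback genes on the list, Nkd1 had 7 to 17.1 normalized counts, Nkd2 30 to 48.2 and Dact3 107 to 178, and none of these was called in any comparison. Dact1, a Dishevelled-binding modulator of the pathway, rose with loss of Bmal1, from 53.5 and 52.5 to 73.2, 85 and 101 in normoxia and from 48.6, 44.3 and 43.5 to 98.9, 101 and 101 in hypoxia. The log2 differences of Dact1 were 0.68 (SE 0.16, limma adjusted p = 0.0162) and 1.13 (SE 0.14, limma adjusted p = 0.000147). The hypoxia call held in all 16 alternatives. The normoxia call was lost on omitting wild-type normoxia replicate 1 or 2 (0.078 and 0.0986) and with DESeq2 (0.0581).

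Co-receptors and R-spondin receptors set how strongly a cell responds to Wnt. Their lists held 6 tested genes (co-receptors and other Wnt receptors) and 3 (R-spondins, their receptors and Frizzled ubiquitin ligases). Of these, 4 were called in at least 1 comparison: Lrp5, Ror2, Lgr6 and Lgr4. Over all tested genes 2.17% to 9.09% were called in each pairwise comparison, and the share called in any comparison was not counted. Lrp5, a co-receptor of the canonical branch, rose in hypoxia in both genotypes, from 741 and 846 to 1207, 1030 and 1232 in wild-type cells and from 664, 755 and 844 to 1209, 1129 and 1148 in knockout cells. Its log2 differences were 0.54 (SE 0.10, limma adjusted p = 0.0101) and 0.63 (SE 0.09, limma adjusted p = 0.00106). The knockout call of Lrp5 held in all 16 alternatives, and the wild-type call was lost on omitting wild-type normoxia replicate 1 (0.141) or the variance trend (0.0744). The related Lrp6, at 1557 to 1831 counts, was called in none of the comparisons.

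Ror2, a receptor tyrosine kinase for Wnt5a, fell with loss of Bmal1. In normoxia its counts were 43.9 and 47.9 in wild-type against 17.4, 23.7 and 15.2 in knockout libraries. In hypoxia they were 38.1, 38.7 and 45.1 against 19.4, 21.8 and 25.6. Knockout and wild-type libraries did not overlap. The log2 differences were -1.27 in normoxia (SE 0.24, limma adjusted p = 0.00477) and -0.84 in hypoxia (SE 0.22, limma adjusted p = 0.026). The normoxia call was lost on omitting wild-type normoxia replicate 2 (0.0569). The hypoxia call was lost on omitting any 1 of the 3 wild-type hypoxia libraries (0.0583 to 0.103) or knockout hypoxia replicate 1 or 2 (0.0961 and 0.0804), with DESeq2 (0.0767) and with no filter (0.059).

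Lgr6, a receptor for R-spondins, which strengthen Wnt signals by keeping Frizzled receptors at the surface, fell from 611 and 685 to 346, 385 and 398 in normoxia and from 715, 842 and 986 to 269, 414 and 411 in hypoxia. The log2 differences of Lgr6 were -0.78 (SE 0.17, limma adjusted p = 0.00992) and -1.23 (SE 0.15, limma adjusted p = 0.000113). The hypoxia call held in all 16 alternatives, and the normoxia call was lost on omitting wild-type normoxia replicate 2 (0.102) or the variance trend (0.0555). Its relative Lgr4 fell in normoxia by 0.37 (SE 0.08, limma adjusted p = 0.0104), a call lost on omitting either wild-type normoxia library (0.0548 and 0.0858), and in hypoxia had a log2 difference of -0.18 (limma adjusted p = 0.16).

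Each pairwise comparison called 1 or 2 of the 10 genes. In wild-type hypoxia 1 of the 10 was called, where 2.17% of all tested genes were, and in knockout hypoxia 2 of the 10, where 4.09% were. In the genotype comparisons 1 of the 10 was called in normoxia, where 9.09% of all tested genes were, and 2 of the 10 in hypoxia, where 8.95% were. For the difference between the hypoxia effects limma called 0 of the 10, with 1 at an unadjusted p under 0.05 and 0 by edgeR or DESeq2. Over all 14729 tested genes 0.00679% were called and 784 had an unadjusted p under 0.05. The median log2 difference of the 10 genes was 0.19 and 0.05 for hypoxia in wild-type and knockout cells, and -0.12 and -0.02 between genotypes in normoxia and hypoxia.

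The wider pathway list held 101 genes, of which 93 were listed and 73 tested, the 10 genes included. It too was chosen with earlier results of these data known, so its called shares are not an independent test. In wild-type hypoxia 3 of the 73 rose and 0 fell by limma, with 1 lower at an unadjusted p under 0.05 and 0 fallen by edgeR or DESeq2. Over all 14729 tested genes 251 rose and 69 fell there, 2.17% called, against 4.11% of the 73. In knockout hypoxia 5 rose and 0 fell, again with 1 lower at an unadjusted p and 0 fallen by edgeR or DESeq2. Over all tested genes 464 rose and 138 fell there, 4.09% called, against 6.85% of the 73. The median log2 difference of the 73 genes was 0.02 and 0.07, and that of all tested genes -0.0025 and -0.0052. Leaving out wild-type normoxia replicate 1 leaves a single library in that group. The count in wild-type hypoxia was then lower, as were the calls over all tested genes. In knockout hypoxia the count was 3 when replicate 1 or 2 of knockout normoxia, or replicate 1 or 3 of knockout hypoxia, was left out. Over all tested genes 303 to 323 rose and 66 to 76 fell in those knockout fits, so calls were fewer there too.

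Between genotypes 3 of the 73 rose and 10 fell in normoxia, 17.8% called, and 3 rose and 8 fell in hypoxia, 15.1% called. Falls also outnumbered rises over all tested genes. There 506 rose and 833 fell in normoxia, 9.09% called, and 491 rose and 827 fell in hypoxia, 8.95% called. The median log2 difference was -0.08 and -0.03, against 0.0049 and 0.0045 over all tested genes. The 3 genes that rose, Fzd3, Daam1 and Dact1, were the same at both oxygen levels. Of those that fell, 6 were shared, which is 60% of the normoxia list and 75% of the hypoxia list: Wnt5a, Ror2, Lgr6, Dkk2, Prickle1 and Lef1. The same sharing was not counted over all tested genes. These comparisons share no libraries but share each gene's variance estimate. The normoxia count of 13 became 8 without knockout normoxia replicate 2, where 312 of all tested genes rose and 623 fell. Leaving out either wild-type normoxia library leaves a single library in that group. The normoxia count was then lower, as were the calls over all tested genes. The hypoxia count of 11 became 5 without wild-type hypoxia replicate 2 or 3 and 6 without knockout hypoxia replicate 1. Over all tested genes 325 to 379 rose and 621 to 657 fell in those hypoxia fits, so calls were fewer there too. The fibroblast marker sum given with Wnt5a was lower and the myoblast marker sum higher in the same knockout libraries. In normoxia 6 of the 10 myoblast markers nevertheless had negative log2 differences. The part of either marker list in these counts was not tested.

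**Figure D4:**
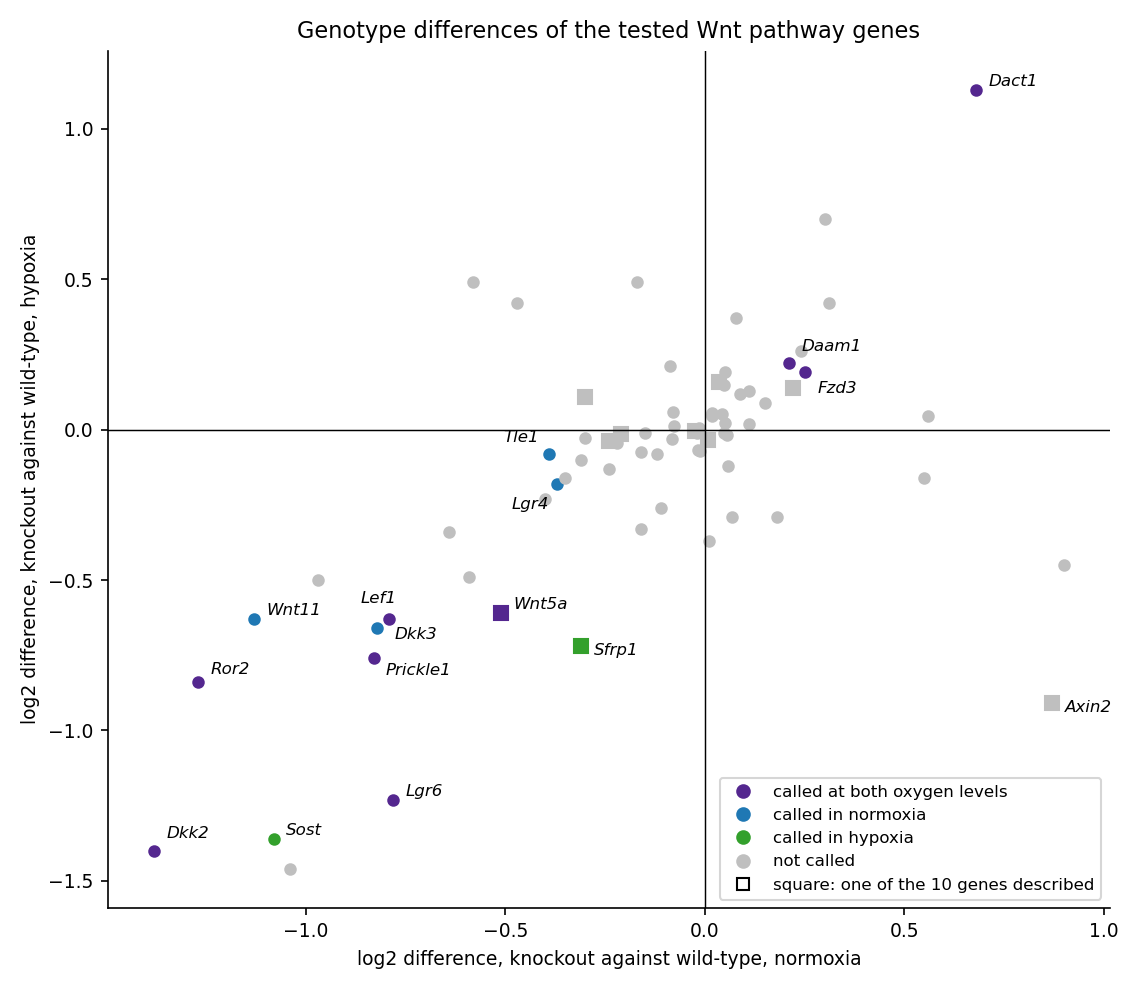
Log2 difference between knockout and wild-type in hypoxia (vertical axis) against that in normoxia (horizontal axis) for the 73 tested Wnt pathway genes, coloured by where limma called them, with squares for the 10 genes described in detail. Dkk2 lies lowest on the normoxia axis at -1.38, Dact1 highest in hypoxia at 1.13, and Axin2, not called, rests on 1 to 11 reads per library.

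**Figure D5:**
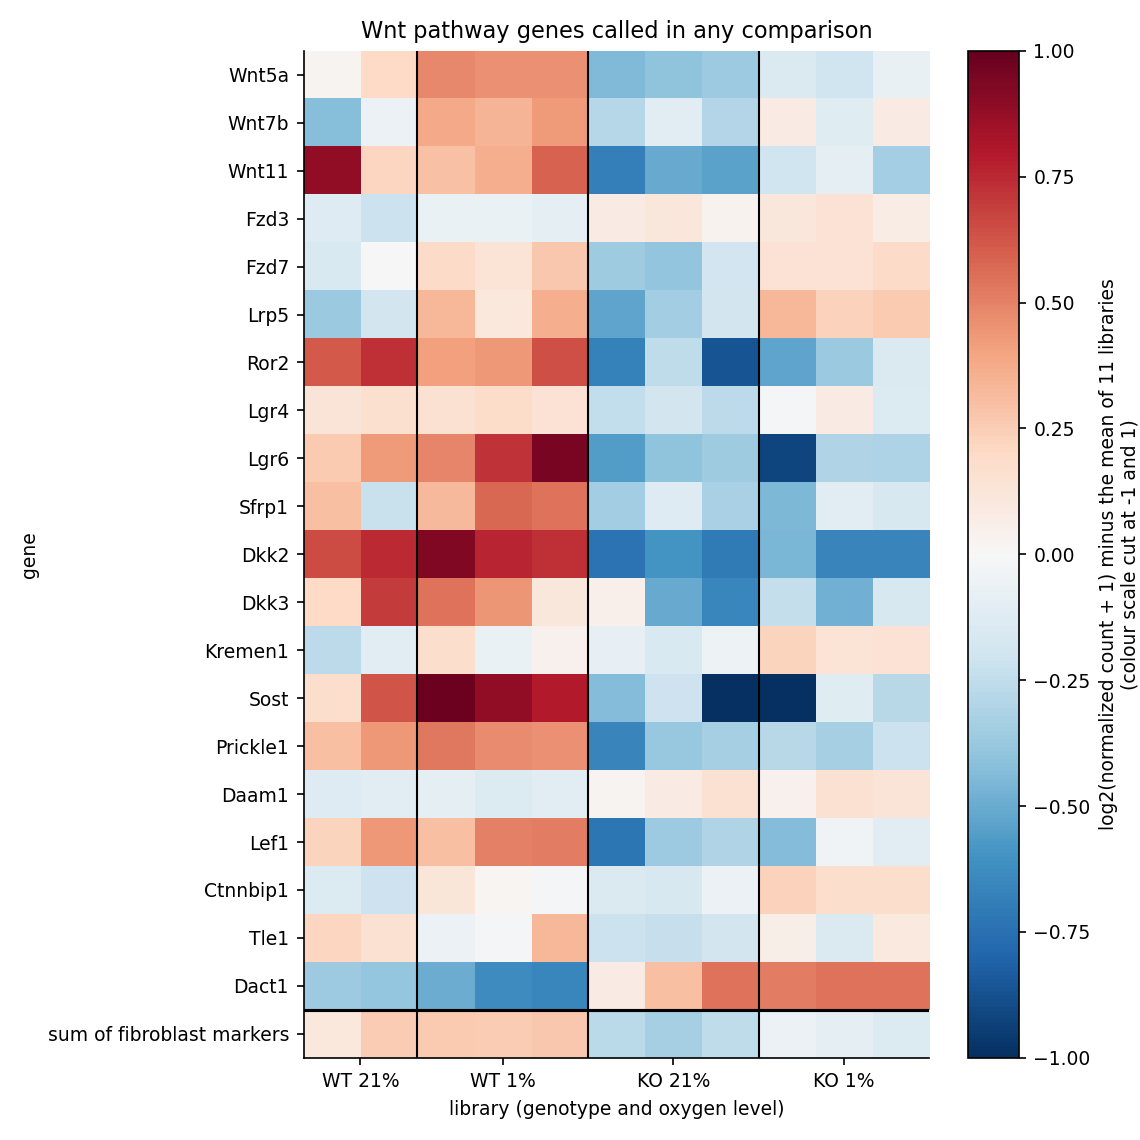
Log2 values of the 20 Wnt pathway genes called in any comparison, and of the summed fibroblast markers below the line, as the difference from each row's mean over the 11 libraries, with libraries as columns grouped by genotype and oxygen level and colours limited to -1 and 1. Wnt5a, Ror2, Lgr6, Dkk2, Prickle1 and Lef1 are lower in the knockout columns, as is the marker sum, and Fzd3, Daam1 and Dact1 are higher.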

How the data were processed

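Total RNA of 11 myoblast libraries was sequenced after preparation from 1 µg with a stranded kit, per the labels' protocols. The submitters' processing notes name bcl2fastq, STAR, Picard, HTSeq, RSEM, DESeq2 and mm10, without versions or roles. The deposited values are signal: each library's counts scaled by 1 size factor, from which 100% of values gave whole reads within 0.01 read. Strand use in counting is not given in the sources used here. Libraries of the same group differed beyond sampling noise, with chi-square per degree of freedom from 4.33 to 20.9.

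Log2 values after adding 1, a scale that understates changes of low genes, were fitted as 4 group means in limma 3.58.1 (R 4.3.3) with a variance trend. Two-sided p-values were adjusted by Benjamini-Hochberg over all 14729 tested genes in each of 5 comparisons, with 0.05 as the threshold for a call, and only called genes are said to have risen or fallen. The fit was tested on simulated counts with the same dispersion for every gene and changes planted only in genes of higher count. That test does not cover the low-count genes or the smaller changes called here. Alternatives were a pseudocount of 5, no filter, no variance trend, edgeR 4.0.16 and DESeq2 1.42.0 on recovered reads, and leaving out each library, 16 in all. On the recovered reads edgeR called 243 genes up and 75 down in wild-type hypoxia, 441 and 130 in knockout hypoxia, 433 and 811 between genotypes in normoxia and 519 and 910 in hypoxia.

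The 10 genes and the lists were chosen with earlier results of these data known. Named were the 10 genes, pathway genes called in any comparison, and the 3 tested genes with the highest Pearson r to each of the 3 genes with the smallest adjusted p. Positions came from GENCODE M21 (GRCm38), and exon length per gene is the union of its exons.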

Additional observations from a re-analysis of the deposited data

How the results depend on the processing

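No paired analysis was possible because the labels give no number or name that links libraries of different groups. Over 50 results of the 10 genes and 16 alternatives, 746 of 786 values kept their direction and their side of the threshold, and 28 changed sign, none of them a called result. The 6 called results stayed called in 87 of 96 alternatives. Axin2 in knockout hypoxia was -0.024 with a pseudocount of 5, -0.18 with edgeR and -0.45 to 0.56 when libraries were left out. The other sign changes came from leaving out a library. In knockout hypoxia the ranges were -0.024 to 0.098 for Fzd2, -0.016 to 0.00093 for Ctnnb1, -0.068 to 0.17 for Tcf7l2 and -0.034 to 0.13 for Sfrp1, and in wild-type hypoxia -0.006 to 0.065 for Ctnnb1. For the genotype difference in normoxia they were -0.082 to 0.15 for Wnt9a and -0.016 to 0.03 for Ctnnb1, and in hypoxia -0.072 to 0.065 for Fzd1, -0.086 to 0.051 for Fzd2 and -0.065 to 0.0056 for Ctnnb1. For the difference between hypoxia effects they were -0.047 to 0.09 for Fzd1 and -0.19 to 0.046 for Tcf7l2. The pathway count was 3 in knockout hypoxia without the variance trend, against 5. Leaving out a library gave 0 to 3 in wild-type hypoxia, 3 to 7 in knockout hypoxia and 5 to 12 in each genotype comparison. Of 32 calls on pathway genes, 11 held in all alternatives. At 1 to 11 reads per library, Axin2 was limited by depth.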

Other observations

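Below the filter, 20 pathway genes were listed and not tested. Among the ligands these were Wnt2b (3.88 to 13.2 normalized counts), Wnt10b (3.11 to 6.51), Wnt10a (0 to 9.33), Wnt6 (0 to 3.63) and Wnt3, Wnt8a, Wnt8b and Wnt16, none above 1.25. The R-spondin genes Rspo1, Rspo2 and Rspo3, which encode the ligands of the Lgr receptors, reached at most 2.17, 10.7 and 1.02. Dkk1, Wif1 and Sfrp4, all secreted inhibitors, reached at most 1.25, 1.14 and 8.57. Lgr5 and Rnf43, known Wnt targets, reached at most 8.68 and 3.11. Wls, which carries Wnt ligands to the surface, was abundant at 2485 to 2743 counts, and Porcn, which adds their lipid, stood at 105 to 132, and limma called neither in any comparison.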
